A study of Rattus norvegicus with 16 samples.

Results

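The genes described here are 3 parts of the mammalian circadian clock, Per2, Bmal1 (formerly Arntl) and Csnk1d, measured in total RNA of rat retina and pineal gland. They are 3 of the 4736 named genes on the array. Every probe set annotated with 1 of these symbols was taken, which gave 5 of the 8740 probe sets other than controls: AB016532_at for Per2, AB012600_s_at and AF015953_at for Bmal1, and L07578_at and rc_AI013513_at for Csnk1d. The study's 16 Affymetrix arrays were 4 of pineal gland and 12 of retina. Each was titled with hour 12 or hour 6, counted either in circadian time (CT) or in Zeitgeber time (ZT). The pineal had 1 array each at CT12, ZT12, CT6 and ZT6, and the retina had 3 arrays at each, numbered 1 to 3. CT conventionally counts hours of the internal clock without a light cycle, and ZT counts hours from lights on. Lighting, strain and age are not given in the labels, nor is the animal behind each numbered array; the p-values therefore cover the spread among arrays, which may be technical.

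BMAL1 pairs with CLOCK and activates transcription at E-box sequences, also in the Per and Cry genes. PER2 is one of the repressors that act back on this pair, and CSNK1D is the kinase casein kinase 1 delta, which phosphorylates PER proteins and so sets how long they last. In many rodent tissues Per2 and Bmal1 RNA run in opposite phase, and Bmal1 is itself driven through ROR elements, which ROR receptors activate and REV-ERB receptors (Nr1d1, Nr1d2) repress. Both the retina and the pineal gland make melatonin with a daily rhythm, and the mammalian retina holds a clock of its own.

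These motifs were looked for on both strands of the 250 bases before the start of each gene in the RefSeq promoter table of build GRCr8, which had entries for Per2 and Bmal1. It had no entry for Csnk1d, so the windows below hold the matches of Per2 and Bmal1 only. Each runs 5′ to 3′ on the gene's strand, and capitals mark the motif. The Per2 windows lie on the minus strand at chr9:99497038-99497067 and chr9:99497167-99497196, and the Bmal1 windows on the plus strand at chr1:176766264-176766293 and chr1:176766298-176766327.
Per2 E-prime box: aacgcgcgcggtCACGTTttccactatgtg
Per2 D-box: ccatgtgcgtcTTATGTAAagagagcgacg
Bmal1 ROR element core, farther: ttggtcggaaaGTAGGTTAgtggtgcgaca
Bmal1 ROR element core, nearer: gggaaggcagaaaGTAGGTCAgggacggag

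The Per2 E-prime box (CACGTT) began 62 bases before the start, and the D-box (TTANGTAA), a motif bound by the factors Dbp, Tef and Hlf, began 192 bases before it. Both ROR element cores (GTAGGTNA) of Bmal1 lay within 53 bases of its start. Among the 33469 promoters of the table, 4.07% held an E-prime box, 2.04% a D-box and 1.69% a ROR element core, while 0.0448% held 2 ROR element cores. The plain E-box (CACGTG), present in 5.59% of them, had no match in either window, which says only that these letters are absent there. A match is a description of the sequence, not a measured binding site.

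Array CT12 1 of the retina stood apart, so the differences that rest on it are given with and without it. Its median rank correlation with the other 11 retina arrays was 0.837, against 0.944 to 0.962 for the others. Its mean of 6 measured rod genes (Sag, Pdc, Rom1, Prph2, Cnga1 and Grk1) was 11.73 log2 units. The other 11 arrays lay between 15.09 and 16.02, with CT12 array 2 the lowest. Other neural retina markers were lowest on CT12 array 1 too. The mean of 5 ganglion cell genes was 9.38 (others 12.80 to 13.40) and that of 3 cone genes 8.74 (9.59 to 10.70). For 4 Muller glia and astrocyte genes it was 12.47 (13.33 to 13.78). Pigment epithelium and blood genes lay within the range of the other arrays, and immune genes above it. The mean of 11 lens genes was 17.25 on CT12 array 1 and 17.18 on CT12 array 2, so the lens level did not set array 1 apart. Array 2 is 1 of the 2 CT12 arrays that remain without array 1. The 4 pineal arrays carried a source name of retina. The retina arrays numbered 3 and the pineal ZT12 array carried a source name of brain where the others had eye. Of 6 measured pineal markers, Tph1, Asmt, Ddc and Aanat were far higher in pineal, Slc18a1 was at 8.67 log2 units in pineal and 7.70 in retina, and Sag, which rods also express, was at 13.03 and 16.98. Tph1, which makes the serotonin precursor, was at 14.33 log2 units in pineal and 6.23 in retina, and Asmt, the last enzyme of melatonin synthesis, was at 13.43 and 8.59. The array titled pineal ZT12 carries 6 hours in its description; it was used at hour 12, as titled.

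Per2 intensity was higher at hour 12 than at hour 6 in both tissues, by 4.48 log2 units in pineal, which passed the test across all probe sets, and by 0.66 in retina, which did not. The pineal hour 6 intensities were too low for Per2 to pass the filter on mean level within the pineal, so it entered that test through its level in retina. As deposited, the pineal intensity was 1725 at CT12 and 44 at CT6. Under Zeitgeber time it was 1045 at ZT12 and 68 at ZT6. Both hour 6 values lay far below the median probe set of the pineal arrays (532 to 576) and are not shown to be above background, and both hour 12 values lay above it. Against the pineal filter's limit of 8.39 log2 units, the CT12 array was 5.18-fold higher and the ZT12 array 3.15-fold higher. On the scale log2(intensity + 16), which understates changes of low values, the single arrays differed by 4.86 under CT and by 3.66 under ZT; these are differences of intensity, and how far RNA differed depends on the background at hour 6. Of all 8740 probe sets, 3.56% differed by at least 1 log2 unit in the same direction under both regimes, and Per2 ranked 4 of 8740 by the smaller of its 2 differences.

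A limma fit of hour and regime within each tissue, chosen after the data were seen, put the pineal difference of Per2 at 4.48 ± 0.35 log2 units (SE), hour 12 minus hour 6. It had the smallest p of the 5244 probe sets kept by the filter over all 16 arrays (adjusted p = 4.61e-05). In this fit 1.56% of probe sets passed adjusted p 0.05. The pineal has no replicates, so its spread is taken from all arrays, with 9 of the 10 residual degrees of freedom from retina. Without the ZT12 pineal array, whose hour is in conflict, the difference was 5.02 ± 0.46 (adjusted p = 0.000299). The mean of 3 measured haemoglobin and erythroid genes moved with the hour in the pineal, at 13.41 (CT12) and 14.17 (ZT12) against 14.89 (CT6) and 15.71 (ZT6) log2 units; its part in the Per2 difference was not tested.

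In the retina the 3 CT12 arrays had Per2 intensities of 1628, 1144 and 884, and the 3 CT6 arrays had 746, 805 and 581. The ZT12 arrays had 843, 891 and 768, and the ZT6 arrays had 582, 572 and 578. All 3 ZT12 arrays were above all 3 ZT6 arrays, which were nearly equal; 25.4% of probe sets showed such a separation in this comparison. CT12 and CT6 did not overlap as deposited, but after quantile normalization the lowest CT12 array, at 9.68 log2 units, was below the highest CT6 array, at 9.74. The order of the group means was CT12 (10.25 ± 0.64 log2 units, SD, n = 3; 9.90 without array 1), ZT12 (9.75 ± 0.09), CT6 (9.51 ± 0.23) and ZT6 (9.18 ± 0.02). As deposited, the ranges of neighbours in this order overlapped.

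**Figure D1:**
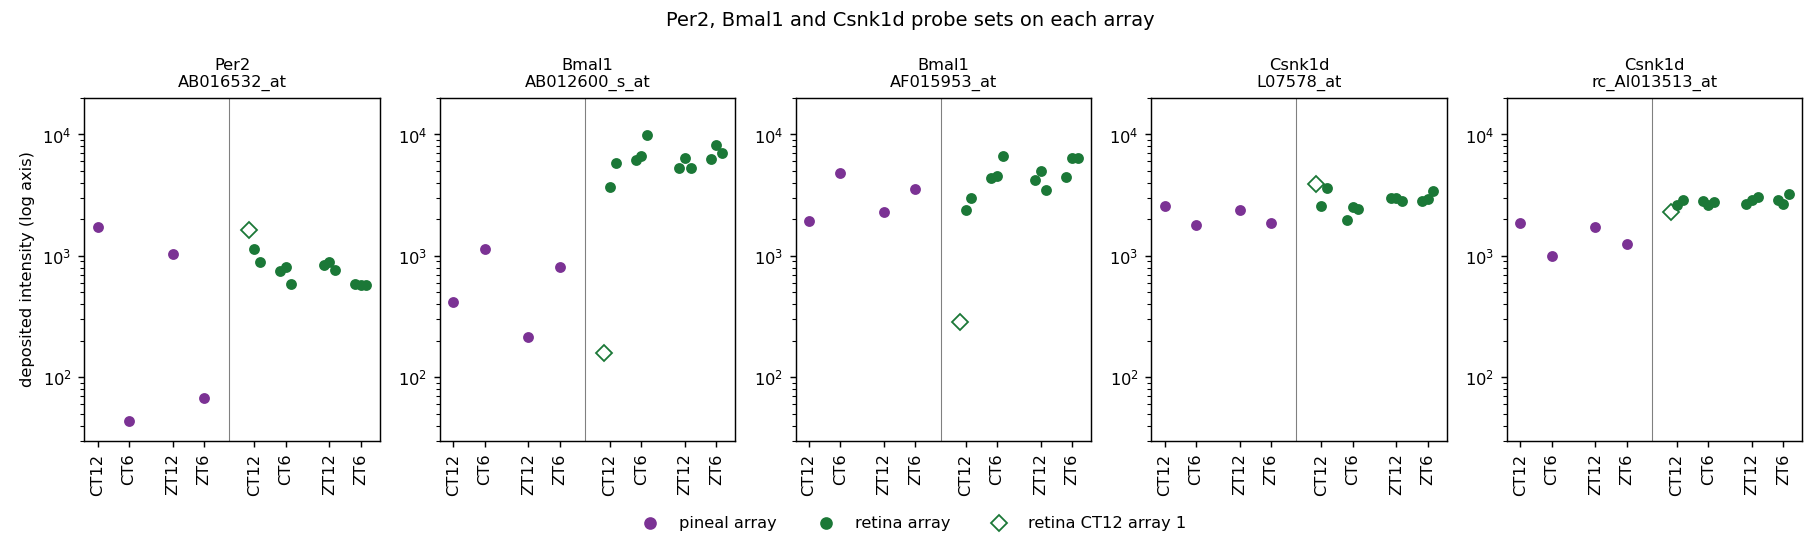
Deposited intensity (log axis) of the 5 probe sets on each array, pineal left of retina and hour 12 left of hour 6 within each regime; each point is 1 array and the open diamond is retina CT12 array 1. Pineal Per2 sits at 1725 and 1045 at hour 12 and at 44 and 68 at hour 6, and the open diamond is the lowest retina point of both Bmal1 probe sets.

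Averaged over both regimes, retinal Per2 was 0.66 ± 0.19 log2 units higher at hour 12 than at hour 6, or 1.58-fold, but missed the threshold of limma across all probe sets (adjusted p = 0.187), which 0.21% of probe sets passed. The difference was 0.74 ± 0.27 under CT (adjusted p = 0.146) and 0.57 ± 0.27 under ZT (adjusted p = 0.608). The shares of all probe sets called were 0.0381% under CT and 0.286% under ZT. An exact two-sided permutation test of the single probe set, with hours exchanged within each regime, gave p = 0.01, where 0.005 is the smallest p that 400 arrangements allow. It was run on each of the 5 members without adjustment, and 16.7% of all probe sets had an exact p below 0.05. Without CT12 array 1 the difference was 0.49 ± 0.12 (limma, adjusted p = 0.0816; exact p = 0.015), and 13.6% of probe sets then had an exact p below 0.05. Without CT12 array 3, where array 1 is 1 of 2 CT12 arrays, it passed, at 0.81 (adjusted p = 0.0381), and so did CT12 minus CT6 at 1.03 (adjusted p = 0.0252); in these fits 3.39% and 24.9% of all probe sets were called.

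The time difference of Per2 was larger in pineal than in retina by 3.82 ± 0.40 log2 units (limma, adjusted p = 0.000376), and by 4.01 ± 0.28 without CT12 array 1 (adjusted p = 3.48e-05). In this test, added after the data were seen, 0.629% of probe sets passed with all arrays and 3.05% without that array, and Per2 was the only member that did. The tissues therefore compared differently at the 2 hours. As deposited, the pineal intensities at hour 12 were 1725 and 1045, against a retinal range of 768 to 1628 (to 1144 without CT12 array 1). At hour 6 those of 44 and 68 were below the retinal range of 572 to 805. After quantile normalization of both tissues together, the pineal hour 12 levels were 11.092 (CT12) and 10.435 (ZT12) log2 units. The retinal hour 12 levels then ran from 9.54 to 10.851, or to 10.017 without CT12 array 1. On that scale both pineal arrays were above every retinal hour 12 array except CT12 array 1, which lay between them. Averaged over conditions, pineal minus retina was -1.04 ± 0.55 (adjusted p = 0.0983), a comparison in which 75.8% of probe sets were called. Without the pineal CT12 array this average was -1.71 (adjusted p = 0.0119), without the pineal ZT12 array it was -1.66 (adjusted p = 0.0175), and without the pineal CT6 array it was -0.29 (adjusted p = 0.619).

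Bmal1 ran the other way, with lower mean levels at hour 12 than at hour 6 on both of its probe sets and in both tissues, though with all arrays none of these differences passed. In the pineal, AF015953_at had intensities of 1943 at CT12 and 4856 at CT6. Under ZT it had 2289 at ZT12 and 3556 at ZT6. On AB012600_s_at the pineal had 419 at CT12 and 1131 at CT6, and 216 at ZT12 and 808 at ZT6. Each of these pairs had the hour 12 array lower. Hour 12 minus hour 6 was -1.31 log2 units under CT and -0.63 under ZT on AF015953_at, and -1.40 and -1.83 on AB012600_s_at. In the added fit neither passed with all arrays, at -0.73 ± 0.84 (adjusted p = 0.989) and -1.54 ± 1.23 (adjusted p = 0.879). Without retina CT12 array 1, which widens the shared spread, AB012600_s_at passed at -1.55 ± 0.28 (adjusted p = 0.00761) and AF015953_at, at -0.73 ± 0.30, did not (adjusted p = 0.225); 4.96% of all probe sets were called in that fit.

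Retinal AB012600_s_at had intensities of 159, 3698 and 5852 on the CT12 arrays and 6143, 6613 and 9939 on the CT6 arrays. The ZT12 arrays had 5257, 6420 and 5346, and the ZT6 arrays had 6328, 8124 and 7010. For AF015953_at the CT12 arrays had 286, 2366 and 3008, and the CT6 arrays 4411, 4541 and 6701. Its ZT12 arrays had 4200, 4990 and 3463, and its ZT6 arrays 4466, 6352 and 6422. Every CT12 array was below every CT6 array on both probe sets, as was so in either direction for 26.5% of probe sets; ZT12 and ZT6 overlapped on both. In order of group means, AB012600_s_at was lowest at CT12 (10.66 ± 2.77 log2 units; 12.25 without array 1), then ZT12 (12.43 ± 0.14), ZT6 (12.77 ± 0.19) and CT6 (12.84 ± 0.37). AF015953_at was also lowest at CT12 (10.40 ± 1.76; 11.41 without array 1), then ZT12 (12.00 ± 0.27), CT6 (12.29 ± 0.32) and ZT6 (12.43 ± 0.29), and on both probe sets the 2 hour 6 groups overlapped.

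Over both regimes retinal Bmal1 was lower at hour 12 by 1.26 ± 0.71 log2 units on AB012600_s_at (limma, adjusted p = 0.351) and by 1.16 ± 0.47 on AF015953_at (adjusted p = 0.267). CT12 minus CT6 was -2.18 ± 1.00 (adjusted p = 0.184) and -1.89 ± 0.66 (adjusted p = 0.143), and ZT12 minus ZT6 was -0.34 ± 1.00 (adjusted p = 0.980) and -0.43 ± 0.66 (adjusted p = 0.936). None of these passed. The single-probe-set exact permutation test gave p = 0.01 for each. Retina CT12 array 1 supplied much of the size: without it the difference over both regimes was -0.46 ± 0.16 on AB012600_s_at (limma, adjusted p = 0.193; exact p = 0.02) and -0.65 ± 0.16 on AF015953_at (adjusted p = 0.0941; exact p = 0.01). CT12 minus CT6 was then -0.59 and -0.88. Without CT12 array 3, in contrast, CT12 minus CT6 passed on both, at -3.15 (adjusted p = 0.0435) and -2.50 (adjusted p = 0.0323), as did 24.9% of all probe sets in that fit.

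**Figure D2:**
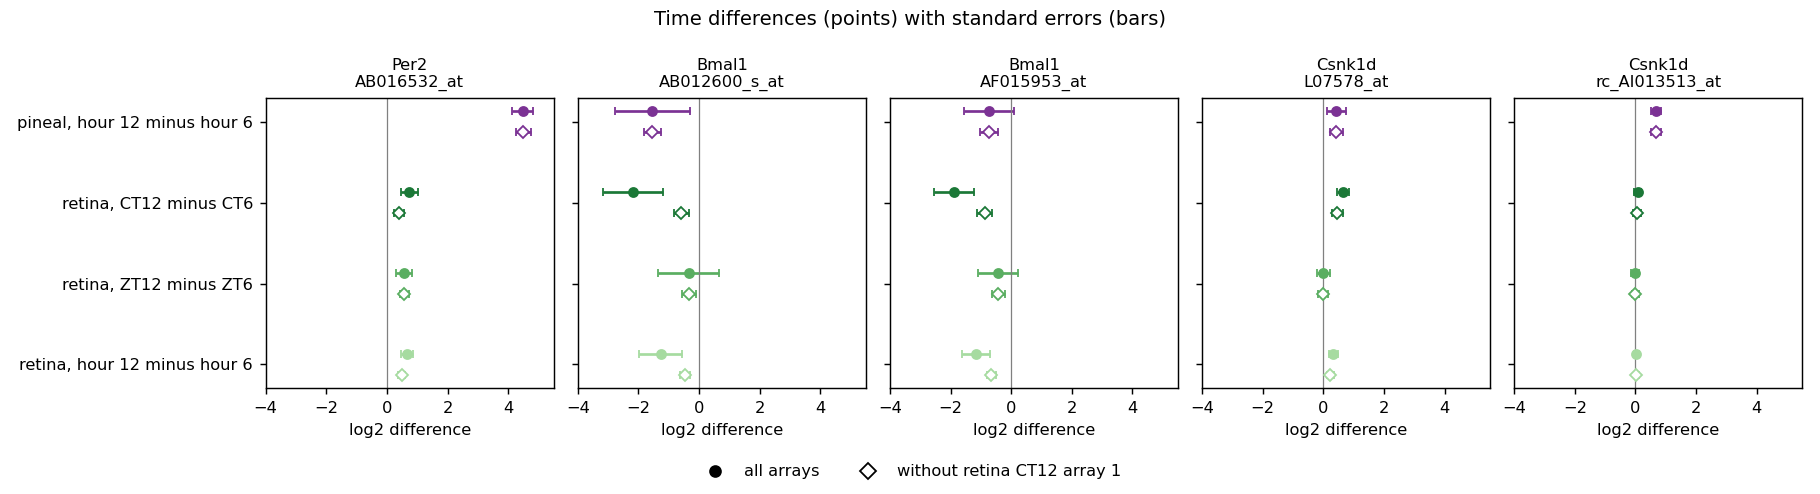
Log2 differences, hour 12 minus hour 6, of the 5 probe sets with standard errors (bars) from limma; the pineal row comes from the fit added after the data were seen, filled circles use all arrays and open diamonds leave out retina CT12 array 1. Per2 stands at 4.48 in pineal and 0.66 in retina, and the 2 Bmal1 probe sets move to -0.46 and -0.65 in retina without that array.

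On CT12 array 1 the members deviated from the mean of the other 11 retina arrays by -5.12 log2 units for AB012600_s_at, where only 14 of 5244 probe sets were lower, and by -3.71 for AF015953_at, where 87 were lower. Per2 deviated by 1.39, with 432 probe sets higher, and Csnk1d by 0.76 (L07578_at) and 0.05 (rc_AI013513_at), against a median of -0.03. Across the other 11 arrays the level of Bmal1 also moved with the rod genes. Of the marker levels, only those of rod and lens were correlated with the members. Pearson's r with the mean rod level was 0.890 for AB012600_s_at and 0.798 for AF015953_at, and with the lens level it was -0.874 and -0.733. Per2 had r = -0.742 with the rod level and 0.689 with the lens level. For AB012600_s_at, AF015953_at and Per2, Spearman's rho was 0.827, 0.745 and -0.636 with the rod level. With the lens level it was -0.674, -0.702 and 0.569. The rod level averaged 14.16 (11.73 to 15.66) at CT12 and 15.90 (15.83 to 15.99) at CT6, and 15.66 (15.58 to 15.75) at ZT12 and 15.83 (15.69 to 16.02) at ZT6. The lens level averaged 16.73 at CT12 and 14.03 at CT6, and 15.27 at ZT12 and 13.96 at ZT6. In bulk tissue fewer cells of a type and less RNA per cell cannot be told apart. The part of tissue makeup in the Bmal1 and Per2 differences was not tested beyond a fit with the lens level. With this level as a covariate in limma, the difference over both regimes was 0.48 ± 0.23 for Per2 (adjusted p = 0.919). It was -0.77 ± 0.88 for AB012600_s_at (adjusted p = 0.922) and -0.83 ± 0.58 for AF015953_at (adjusted p = 0.919). In that fit 0 of all 5244 probe sets passed.

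**Figure D3:**
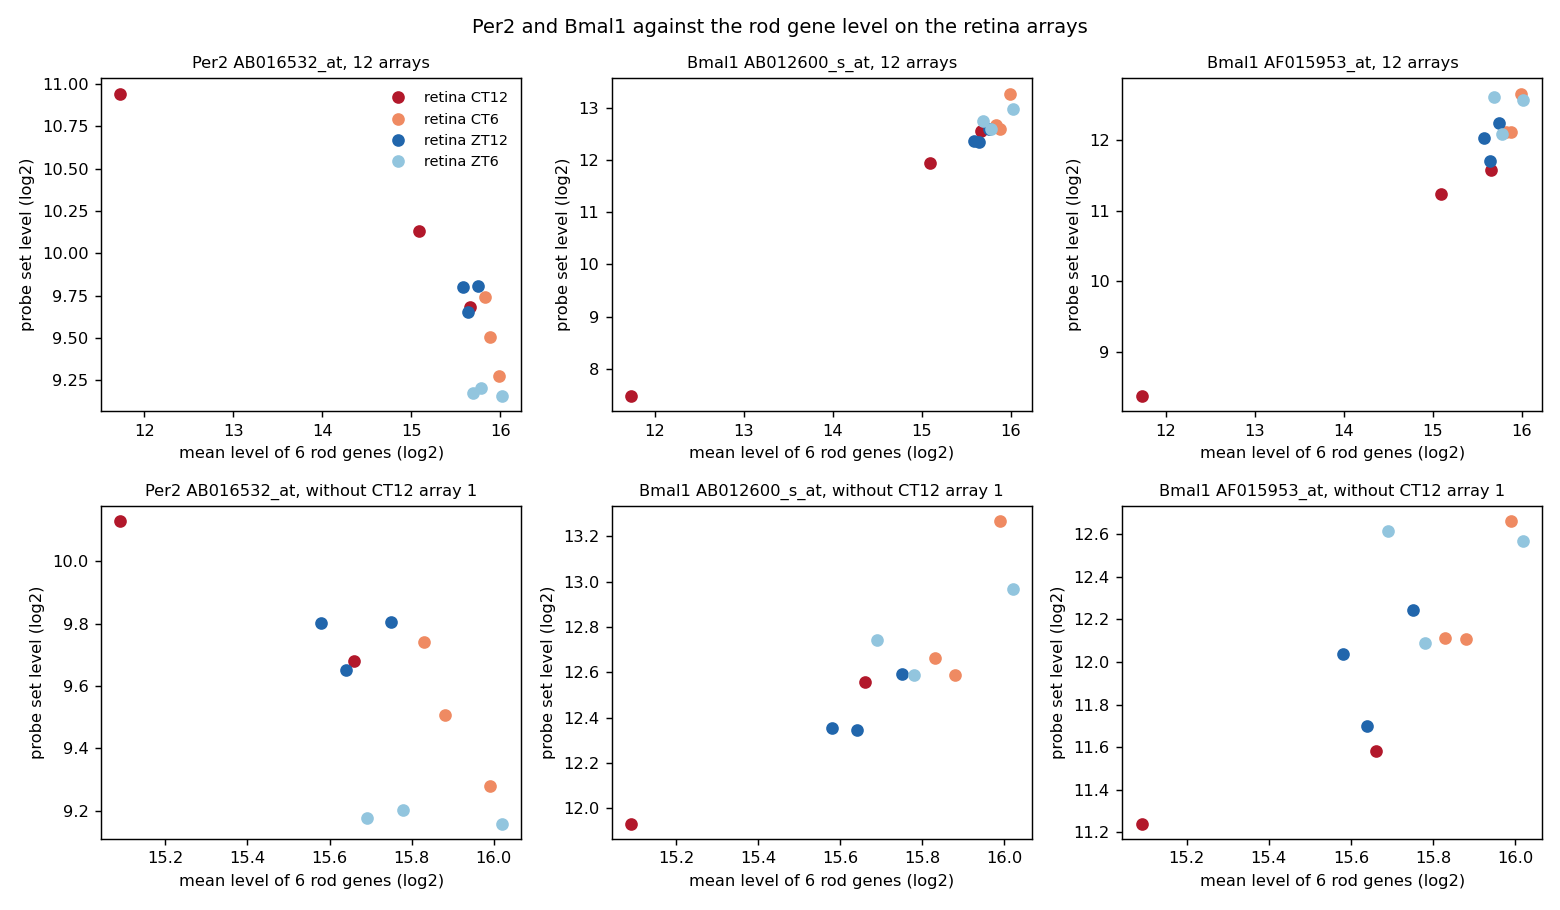
Level of Per2 and of both Bmal1 probe sets against the mean level of 6 rod genes, both in log2 units after quantile normalization, on the 12 retina arrays (top) and without CT12 array 1 (bottom); each point is 1 array, coloured by group. The array at a rod level of 11.73 is the highest for Per2 and the lowest for Bmal1, and among the other 11 Bmal1 AB012600_s_at still follows the rod level (r = 0.890).

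Per2 and Bmal1 levels were inversely related across the retina arrays. Over the 11 retina arrays other than CT12 array 1, Pearson's r between Per2 and Bmal1 was -0.772 (AB012600_s_at) and -0.779 (AF015953_at), and the 2 Bmal1 probe sets followed each other at r = 0.871. Over all 12 arrays these were -0.878, -0.914 and 0.977. Spearman's rho for the same pairs over the 11 arrays was -0.627, -0.573 and 0.945. These values are descriptions over arrays that share the hours and the tissue makeup.

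The 2 Bmal1 probe sets disagreed on the tissue difference. AB012600_s_at was 6.52-fold lower in pineal than in retina, at -2.70 ± 0.69 log2 units (limma, adjusted p = 0.00254), and without retina CT12 array 1 the difference was -3.12 ± 0.24 (adjusted p = 4.16e-08). Without the arrays numbered 3 and the pineal ZT12 array it did not pass, at -1.82 (adjusted p = 0.0876). Its pineal intensities of 216 to 1131 lay within the retinal range of 159 to 9939 only through that array, the rest of which began at 3698. AF015953_at did not differ beyond its error, at -0.04 ± 0.45 (adjusted p = 0.933, 95% interval -1.01 to 0.92), and without CT12 array 1 it was at -0.31 ± 0.17 (adjusted p = 0.104). Its pineal intensities were 1943 to 4856 and its retinal ones 286 to 6701 (from 2366 without that array). The ratio between tissues therefore depends on which probes are read, and the cause was not tested. Relative to quantile normalization, the values as deposited shift the median tissue difference of all probe sets by -0.325 log2 units.

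Csnk1d had the smallest hour differences of the 3 genes over both regimes with all arrays, and none passed. In pineal, rc_AI013513_at had intensities of 1873 at CT12 and 996 at CT6, and 1725 at ZT12 and 1244 at ZT6. L07578_at had 2584 at CT12 and 1810 at CT6, and 2398 at ZT12 and 1880 at ZT6. All 4 pairs had the hour 12 array higher, by 0.90 (CT) and 0.47 (ZT) log2 units on rc_AI013513_at and by 0.51 and 0.35 on L07578_at. In the added limma fit rc_AI013513_at was 0.68 ± 0.17 higher at hour 12 (adjusted p = 0.0785) and passed without retina CT12 array 1, at 0.68 ± 0.15 (adjusted p = 0.0251), in a fit that called 4.96% of all probe sets. L07578_at was at 0.43 ± 0.30 (adjusted p = 0.798).

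In the retina, L07578_at had 3890, 2570 and 3640 at CT12 and 1991, 2523 and 2441 at CT6, so that these groups did not overlap, as in 26.5% of all probe sets. Under ZT it had 3011, 3014 and 2846 at ZT12 and 2842, 2934 and 3405 at ZT6, which overlapped. The other probe set, rc_AI013513_at, had 2314, 2610 and 2906 at CT12 and 2809, 2607 and 2805 at CT6. At ZT12 it had 2661, 2867 and 3042, and at ZT6 2886, 2684 and 3231. On rc_AI013513_at every retinal pair of groups overlapped, and the 12 arrays had an SD of 0.08 log2 units. In limma, CT12 minus CT6 was 0.65 ± 0.21 for L07578_at (adjusted p = 0.131; 0.46 without CT12 array 1, adjusted p = 0.216) and 0.07 ± 0.13 for rc_AI013513_at (adjusted p = 0.707). ZT12 minus ZT6 was -0.002 ± 0.21 and -0.008 ± 0.13, with 95% intervals of -0.46 to 0.45 and -0.29 to 0.27. Over both regimes hour 12 minus hour 6 was 0.32 ± 0.15 for L07578_at (adjusted p = 0.283; exact permutation p = 0.105) and 0.03 ± 0.09 for rc_AI013513_at (adjusted p = 0.845; exact p = 0.54). The order of the L07578_at group means was CT12 (11.81 ± 0.41), ZT6 (11.53 ± 0.15), ZT12 (11.52 ± 0.08) and CT6 (11.16 ± 0.19).

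Between tissues, rc_AI013513_at was lower in pineal than in retina, at -0.58 ± 0.13 log2 units (limma, adjusted p = 0.000775), and its 4 pineal intensities of 996 to 1873 were all below the 12 retinal ones of 2314 to 3231; 51.6% of probe sets separated the tissues in this way in one direction or the other. L07578_at gave -0.10 ± 0.14 (adjusted p = 0.522), with 1810 to 2584 in pineal and 1991 to 3890 in retina. With the values as deposited it passed as well, at -0.42 (adjusted p = 0.00755), but those values shift the median tissue difference of all probe sets by -0.325 log2 units.

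The regime moved no member past the threshold. CT minus ZT over both hours was 0.41 ± 0.19 for Per2 (limma, adjusted p = 0.425) and 0.24 without CT12 array 1, and for Bmal1 it was -0.85 ± 0.71 and -0.86 ± 0.47 (adjusted p = 0.558 and 0.450), or -0.06 and -0.36 without that array. Csnk1d was at -0.04 ± 0.15 and -0.03 ± 0.09. Limma called 0 probe sets (0.0%) in this comparison, where 621 had an unadjusted p below 0.05. The difference between the time effects, CT minus ZT, was 0.17 ± 0.38 for Per2 (adjusted p = 0.800; -0.18 without CT12 array 1). It was -1.85 ± 1.42 and -1.46 ± 0.94 for Bmal1 (-0.25 and -0.45 without that array) and 0.65 ± 0.29 (L07578_at, adjusted p = 0.305) and 0.08 ± 0.18 for Csnk1d, and no member passed, against 0.0191% of all probe sets. Of all probe sets, 1.53% separated the 6 hour 12 retina arrays from the 6 hour 6 arrays, and no member did.

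The wider clock list, chosen with earlier results of these data known, held 44 genes, of which 25 were on the array under a symbol of their own and 22 passed the filter. In the retina 0 of 22 passed limma for the hour over both regimes (0.21% of all probe sets passed, and 923 of the 5244 had an unadjusted p below 0.05), with a median of -0.15 log2 units against -0.05 for all probe sets. In the pineal only Per2 passed the hour comparison, which 1.56% of all probe sets passed, with a list median of 0.12 against -0.03. Among the nuclear receptors that act on the Bmal1 ROR elements, the repressor Nr1d2 was 0.88 ± 0.26 log2 units higher at hour 12 in pineal (adjusted p = 0.142) and Nr1d1 was at -0.26 ± 0.27 (adjusted p = 0.963). In retina Nr1d2 was at -0.20 ± 0.14 (adjusted p = 0.442) and Nr1d1 at -0.30 ± 0.14 (adjusted p = 0.287). Rorb, a receptor that activates through these elements, was at 1.48 ± 1.16 in pineal and 0.44 ± 0.66 in retina with all arrays (adjusted p = 0.697 in retina). Without CT12 array 1 it passed in retina, at 1.16 (adjusted p = 0.0141), as did 1.3% of all probe sets. Of the output factors that bind D-boxes, Dbp was at 0.90 ± 0.40 in pineal (adjusted p = 0.442) and -0.43 ± 0.22 in retina (adjusted p = 0.317), and Tef and Hlf missed the threshold too. The Dec repressors Bhlhe40 and Bhlhe41 were at -0.41 ± 0.25 and -0.54 ± 0.14 in retina (adjusted p = 0.380 and 0.170), and at 0.36 ± 0.42 and 0.09 ± 0.25 in pineal.

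Csnk1d stood among 12 tested kinases, phosphatases and ligase parts that act on PER proteins, and none of them passed for the hour in either tissue, where 1.56% (pineal) and 0.21% (retina) of all probe sets did. Their median hour difference was 0.02 log2 units in pineal and -0.08 in retina. Between tissues 7 of the 12 were lower in pineal and 4 higher, against 75.8% of all probe sets called, with Csnk1d L07578_at, the brighter probe set of the gene, the one not called. The relatives Csnk1g2 and Csnk1a1 were lower in pineal by 2.24 and 2.02 log2 units (adjusted p = 3.15e-10 and 7.57e-08).

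**Figure D4:**
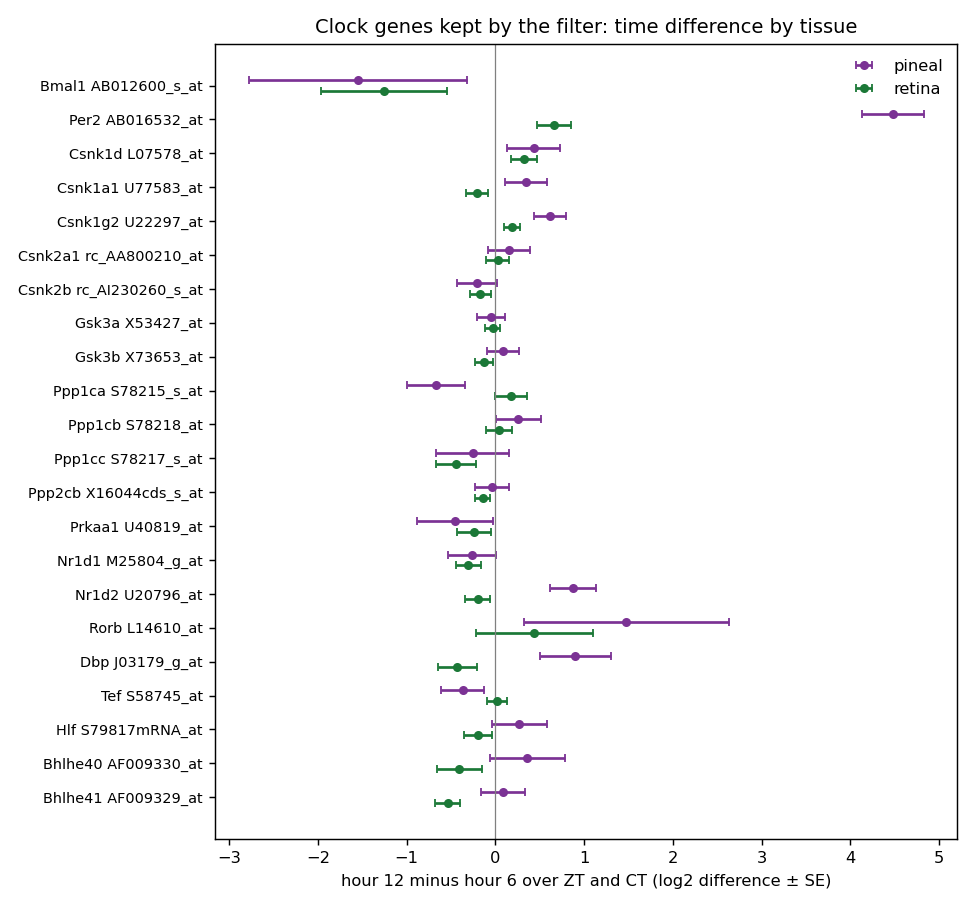
Hour 12 minus hour 6 over both regimes, in log2 units with standard errors, for the brightest probe set of the 22 clock genes kept by the filter, in pineal (upper point of each row) and retina (lower point). Per2 in pineal, at 4.48, is the largest value, and in retina the values run between -1.26 (Bmal1) and 0.66 (Per2).

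The probe sets most alike to each member over the 11 retina arrays other than CT12 array 1 were ranked by Pearson's r. Per2 was followed most closely by Ivns1abp (0.911), the collagen hydroxylase subunit P4ha1 (0.903) and Bst1 (0.895), then by the growth arrest gene Gadd45a (0.880). Bmal1 AB012600_s_at was most alike to the kinase Camkk1 (0.950), the proteasome subunit Psma7 (0.940) and the clock output factor Dbp (0.934). Rank 4 was Sncg (0.925), 1 of the 5 ganglion cell genes. AF015953_at was most alike to Cebpg (0.941) and Grb10 (0.940). No gene stood in the first 5 of both Bmal1 probe sets. For Csnk1d the closest were the sialyltransferase St8sia3 (0.911) on L07578_at and Strn4 (0.837) on rc_AI013513_at. With CT12 array 1 added, St8sia3 was at -0.25 and Strn4 at 0.549, while Camkk1 was at 0.997. Without the 2 arrays farthest from the member's median, Camkk1 was at 0.81 and Dbp at 0.776, while Psma7 was at 0.948. Each is the highest of 3172 candidates or close to it, over arrays that share the hours and the tissue makeup.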

How the data were processed

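The authors deposited one linear intensity per probe set and array, from 16 rat arrays; the software that summarized, background-corrected and scaled them is not given in the sources used here. Genes came from GEO's platform annotation. Retina medians (671.3 to 858.4) differed by over 10%, so the 12 retina arrays, and all 16 for comparisons with pineal, were quantile normalized as log2(intensity + 16). Probe sets at or above the 40th percentile of mean level were kept (5244, including all 5 members; limit 8.88 log2 units in retina) and tested with limma 3.58.1 in R 4.3.3 (4 retina groups; tissue plus condition), with Benjamini-Hochberg adjustment over all 5244 and a threshold of 0.05. Single pineal arrays were compared as deposited. A fit of hour and regime within each tissue was added after the data were seen. Exact tests used Python 3.11.15. Code was tested on simulated data. Whether the array number of the titles pairs samples is not known, and the main fits did not use it. Same-numbered arrays had a median correlation of deviations of 0.0125 (-0.413 to 0.414). Arrays of different number had -0.0286 (-0.519 to 0.533). These values cannot exclude pairing or a shared batch. Arrays numbered 3 and pineal ZT12, which share a source name, were left out together as an alternative. Arrays give no counting depth; their number limits precision. Members and lists were chosen with earlier results of these data known. The text gives the intensity of every member on every array, and values of up to 4 other list genes per role; list genes called between tissues are given mostly as counts. Most alike probe sets are the first 5 by r. Alternatives are in the closing section.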

Additional observations from a re-analysis of the deposited data

Results flagged for a closer look

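Retina CT12 array 1 lay apart from the other 5 retina arrays at hour 12 by Dixon's test, with a normalized level of 10.94 log2 units for Per2, 7.48 for Bmal1 AB012600_s_at and 8.37 for Bmal1 AF015953_at. The gap to the nearest array was 0.630, 0.871 and 0.741 of the whole range, against a critical value of 0.625. Chance marks about 1 in 20 groups, and 10 groups were examined; all 3 marks fell on this array.

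The time difference of Per2 differed between pineal and retina by 3.82 log2 units in the limma fit that was added after the data were seen (adjusted p = 0.000376). Hour 12 was higher than hour 6 in both pineal pairs.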

How the results depend on the processing

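The pineal Per2 difference kept its sign and passed under all 21 alternatives run, between 3.82 and 5.02 log2 units, as did its excess over retina (3.20 to 4.36). Pineal minus retina for Csnk1d rc_AI013513_at also passed under all 21. Under every alternative the pineal hour fits took their spread mostly or only from retina, so the alternatives do not test that spread. Of 735 member values under alternatives, 698 kept sign and side of the threshold, 11 gained a call, 1 lost it and 25 changed sign; the sign changes are mostly values near 0.

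Counts of probe sets called moved as follows. ZT12 minus ZT6 gave 15, and 9 as deposited, 6 with no filter, 3 with the lens level as a covariate and 0 without the arrays numbered 3. It gave 1 to 79 when each ZT array or CT12 array 1 was left out; other CT arrays were not left out here. CT12 minus CT6 gave 2, and 5 with offset 1, 0 with no filter, 0 with the lens covariate and 1 without the arrays numbered 3. It gave 0 to 1306 when each CT array was left out, the highest without CT12 array 3. Hour 12 minus hour 6 gave 11, and 0 with the lens covariate, 0 without the arrays numbered 3, and 3 to 178 over the arrays left out. CT minus ZT gave 0, and 0 to 3. The difference of time effects gave 1, and 3 without the arrays numbered 3, and 1 to 63. The pineal hour comparison gave 82, and 22 without the arrays numbered 3 and pineal ZT12, and 57 to 260. The pineal minus retina time effect gave 33, and 3 without those arrays, and 24 to 160. With the replicate number as a block, hour 12 minus hour 6 gave 7 and the difference of time effects 2; the block changed no member's call.

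As deposited, pineal minus retina was -1.39 for Per2 and -0.42 for Csnk1d L07578_at, and both passed. The deposited values shift the median tissue difference of all probe sets by -0.325 log2 units. With them Csnk1d rc_AI013513_at changed sign at CT12 minus CT6 (-0.075), over both regimes (-0.056, limma and exact test) and in the difference of time effects (-0.039). Without the arrays numbered 3 (and pineal ZT12), Csnk1d ZT12 minus ZT6 was 0.13 (L07578_at) and 0.0309 (rc_AI013513_at), Per2 pineal minus retina was -1.79 and passed, AB012600_s_at was -1.82 and no longer passed, AF015953_at was 0.42, and the pineal minus retina time effect of AB012600_s_at was 0.35. With the lens covariate, L07578_at ZT12 minus ZT6 was 0.00184.

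Leaving out each ZT array or CT12 array 1, ZT12 minus ZT6 ran from -0.0649 to 0.0827 for L07578_at and from -0.0580 to 0.0636 for rc_AI013513_at. Leaving out each CT array, CT12 minus CT6 ran from 0.40 to 1.03 for Per2, from -3.15 to -0.59 for AB012600_s_at and from -2.50 to -0.88 for AF015953_at. For the comparisons that follow, every array in the fit was left out in turn. Per2 over both regimes ran from 0.49 to 0.81. CT minus ZT ran from -0.14 to 0.0655 for L07578_at and from -0.056 to 0.00465 for rc_AI013513_at, and the Per2 difference of time effects from -0.18 to 0.46. Pineal minus retina ran from -1.71 to -0.29 for Per2 and from -0.36 to 0.12 for AF015953_at. The pineal hour difference ran from -1.77 to -1.32 for AB012600_s_at and from 0.47 to 0.87 for rc_AI013513_at, and the pineal minus retina time effect from -1.07 to 0.10 for AB012600_s_at and from -0.0498 to 0.74 for AF015953_at. The cause of these shifts was not tested beyond the arrays left out.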
